A study of Mus musculus with 3 samples.

Results

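The genes described here are 49 mouse splicing factors and spliceosome components, taken by gene symbol from a deposited table of 56691 genes. They comprise SR proteins, U1, U2 and tri-snRNP factors, exon junction and recruitment factors, hnRNPs, the kinases that phosphorylate SR proteins, and RS-rich cofactors. Each of the 49 symbols matched 1 line of the table, and 36 of the 49 carry the KEGG spliceosome term in the authors' own annotation. All 49 reached an FPKM (the count scaled to exonic length and to library size) of at least 1 in at least 1 library, the limit used below for comparing genes, which 13351 genes of the table met. RNA was sequenced from 3 cultures of mouse gastric corpus organoids, labelled gastric epithelia, with 1 library in each group.

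The library labelled Gpx4 KO-Mist1+ has the genotype Gpx4 KO, and Gpx4F/F;Mist1Cre/ERT2;RFPLSL mice are the floxed strain named for the series. The libraries labelled Mist1+ and Mist1- have the genotype WT, and the strain named beside the floxed one is Mist1Cre/ERT2;RFPLSL. The strain names show a Cre-ERT2 allele driven from Mist1 (Bhlha15), a transcription factor gene of secretory cells, and a Cre-dependent red fluorescent reporter, so the WT cultures come from mice that carry these alleles as well. Mice were about 8 weeks old, all 3 cultures carry the label P5, and all grew in Matrigel in proliferating medium. How many mice or clones stand behind each culture, and how Cre was activated, is not given in the sources used here. Since each group is a single library, no difference can be checked against replicates. No p-value is given, and every interval below is a 95% interval that covers counting error alone.

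The libraries held 16396693 counts in Gpx4 KO-Mist1+, 16187378 in Mist1+ and 14943918 in Mist1-. All 9 epithelial marker genes examined were at or above an FPKM of 1 in all 3 libraries, and no gene of the immune, fibroblast, endothelial, endocrine or neuronal and glial lists was. Of 6 chief cell markers, 3 were at or above 1, and Pga5, Lipf and Chia1 were at 0 in every library. The summed FPKM of the 6 chief cell markers was 2592.6 in Gpx4 KO-Mist1+, 3412.53 in Mist1+ and 1947.45 in Mist1-. Markers of pit and neck cells differed more between the libraries. The summed FPKM of 4 pit cell markers was 90.42 in Gpx4 KO-Mist1+, 97.98 in Mist1+ and 712.63 in Mist1-, that of 3 neck cell markers was 699.29, 169.58 and 329.44 in the same order, and that of the 2 parietal cell markers did not exceed 1.69, with Atp4b at 0 in every library. The part of these cell types in the differences given below was not tested. Bhlha15 had an FPKM of 6.46 in Gpx4 KO-Mist1+, 10.2 in Mist1+ and 5.4 in Mist1-. Gpx4 had an FPKM of 90.9 in Gpx4 KO-Mist1+, 71.6 in Mist1+ and 171 in Mist1-, so its summed signal was not lower in the library labelled Gpx4 KO-Mist1+ than in Mist1+. A count over the whole gene does not check a deletion of part of it, and the names of the libraries are used below as labels only.

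Introns are removed from pre-mRNA by the spliceosome, which is assembled anew on each intron from small nuclear ribonucleoproteins (snRNPs). U1 marks the upstream splice site, U2 with the SF3 complexes and the U2AF dimer marks the branch point and the downstream site, and the U4/U6.U5 tri-snRNP then joins and is remodelled into the catalytic form. SR proteins, whose arginine-serine tails are phosphorylated by the Clk and Srpk kinases, mostly favour exon inclusion, whereas hnRNPs often oppose it. Once exons are joined, a complex built on Eif4a3, Magoh and Rbm8a is left near each junction and marks the mRNA for export, translation and nonsense-mediated decay.

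The 49 genes took 1.17% of all counts in Gpx4 KO-Mist1+, 1.38% in Mist1+ and 1.21% in Mist1-. Their counts per gene lay between 325 and 16827 in Gpx4 KO-Mist1+, between 283 and 22442 in Mist1+ and between 274 and 22220 in Mist1-, so counting error was small for all of them. Their median FPKM was 28.8 in Gpx4 KO-Mist1+, 32.9 in Mist1+ and 25.4 in Mist1-. Over the 13351 genes the medians were 6.51, 6.90 and 5.63 in the same order. The splicing genes were thus all expressed, and most of them lay well above the typical gene, in every library.

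Genes were compared on the log2(FPKM + 1) scale, on which a value of 1 is a 2-fold difference, and folds of individual genes were computed from counts divided by the column totals. In Mist1+ against Mist1-, 3 of the 49 genes were at least 2-fold higher (Srrm2, Prpf8 and Luc7l2) and 1 was at least 2-fold lower (Magoh). The background shares were 7.88% higher and 5.73% lower among the 13351 genes, so these counts of 3 and 1 were at or below the background. The split depends on the scaling: with TPM it was 10 higher and 0 lower (22.6% and 4.01% of all genes), and with median-ratio scaling 2 higher and 3 lower (4.83% and 9.22% of all genes). In Gpx4 KO-Mist1+ against Mist1+, 0 of the 49 were 2-fold higher (background 4.81%) and 1, Cwc22, was 2-fold lower (background 2.74%). In Gpx4 KO-Mist1+ against Mist1-, 5 were 2-fold higher (Srrm2, Luc7l2, Prpf8, Srrm1 and Prpf39, background 11.6%) and 8 were 2-fold lower (Cwc22, Magoh, Rbm8a, Cwc15, Eif4a3, Sf3a3, Srsf3 and Prpf31, background 8.56%). With TPM this balance turned to 9 higher and 4 lower (24.3% and 5.95% of all genes). The 3 comparisons share libraries and are not independent of each other.

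A smaller but wider shift was seen at 1.5-fold in Gpx4 KO-Mist1+ against Mist1+. There 15 of the 49 genes were at least 1.5-fold lower (background 11.3%) and 0 were at least 1.5-fold higher (background 10.6%). In the same comparison 37 of the 49 were below 0 (background 58.8%), and the median log2 ratio was -0.32 for the splicing genes and -0.09 for all genes. In Mist1+ against Mist1-, 11 were at least 1.5-fold higher (background 23.7%) and 5 lower (background 15%), with a median of 0.18 (-0.20 to 0.51 over the scalings tried) against 0.15 for all genes. Between Gpx4 KO-Mist1+ and Mist1-, 10 were at least 1.5-fold higher (background 25.6%) and 17 lower (background 20.1%), with a median of -0.28 (-0.44 to 0.00026 over the scalings) against 0.09. Of the 49, 17 were lowest in Gpx4 KO-Mist1+ and highest in Mist1- (background 21.9%), and 9 were highest in Gpx4 KO-Mist1+ and lowest in Mist1- (background 21.8%). In all, 29 of the 49 had their lowest FPKM in Gpx4 KO-Mist1+ (background 34.6%), 3 in Mist1+ (background 18.2%) and 17 in Mist1- (background 45.7%). The members were chosen with results of these libraries known, so these counts describe the libraries and test nothing.

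**Figure D1:**
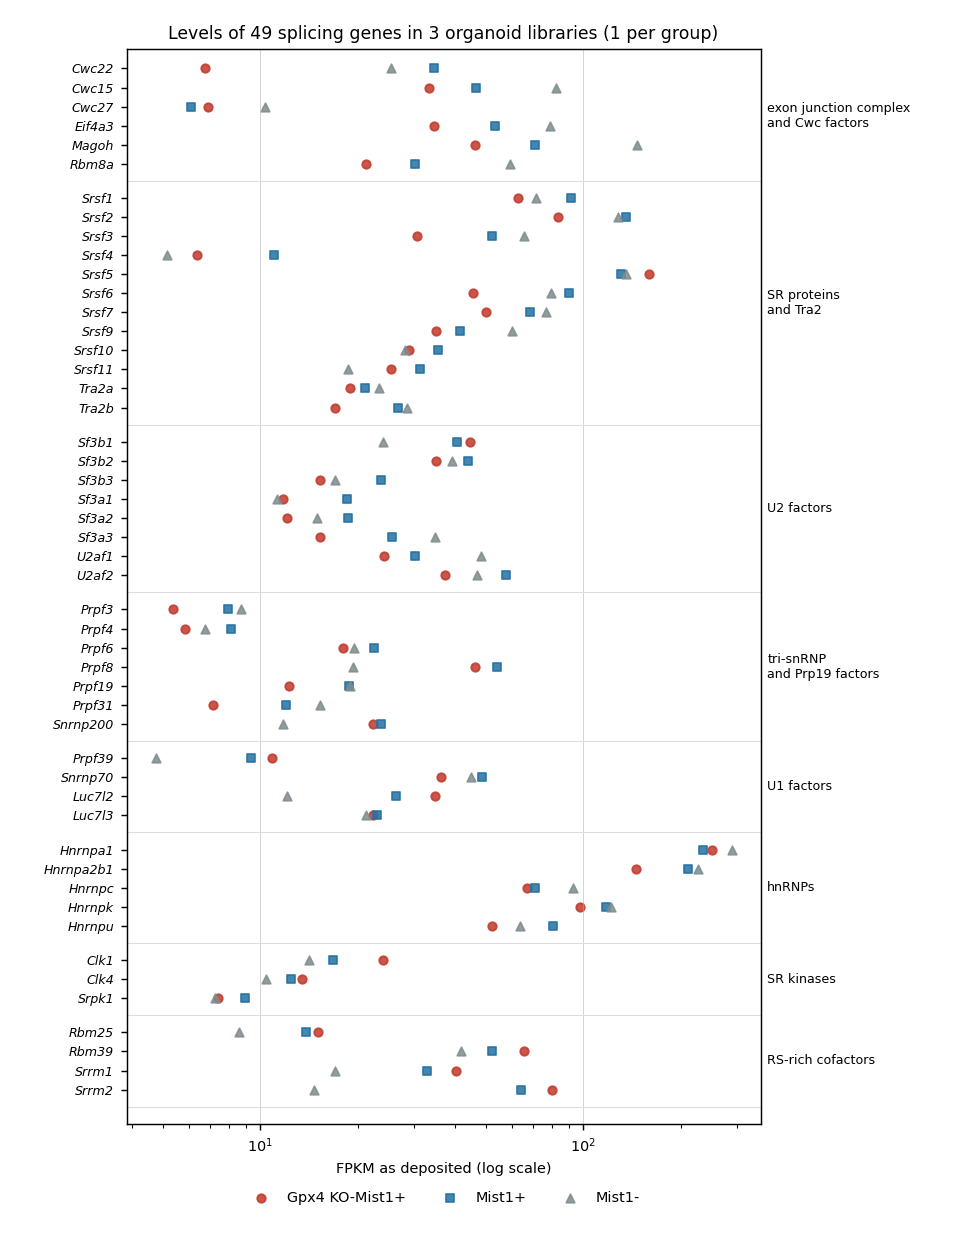
Deposited FPKM (log axis) of the 49 splicing genes, grouped by role, with 1 point per library: circles for Gpx4 KO-Mist1+, squares for Mist1+ and triangles for Mist1-. Levels span from 4.74 (Prpf39 in Mist1-) to 287.87 (Hnrnpa1 in Mist1-), and the point for Cwc22 in Gpx4 KO-Mist1+, at 6.75, stands well left of its other points.

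In the plot of levels the largest separations are those of Cwc22 and Srrm2, which lie on different sides: Cwc22 is low in 1 library, Gpx4 KO-Mist1+, and Srrm2 is low in 1 library, Mist1-. Most hnRNPs and SR proteins, by contrast, have 3 points close together on the log axis.

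Exon junction complex and Cwc factors had the lowest median of the 8 role groups in both comparisons with Mist1-. The median log2 ratio of the 6 genes was -0.74 in Mist1+ against Mist1-, -0.54 in Gpx4 KO-Mist1+ against Mist1+, and -1.36 in Gpx4 KO-Mist1+ against Mist1-. These medians stayed below 0 under every scaling tried. Summed FPKM of the 6 genes was 148.86 in Gpx4 KO-Mist1+, 241.36 in Mist1+ and 403.35 in Mist1-. Cwc22 departed from the other 5 in that its FPKM was higher in Mist1+ than in Mist1-.

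Cwc22 (chr2:77881159-77946375, minus strand, in GRCm38 by GENCODE M21) encodes the spliceosomal protein that brings Eif4a3 to the assembling complex. It had 755, 3817 and 2593 counts in Gpx4 KO-Mist1+, Mist1+ and Mist1-, and FPKM of 6.75, 34.6 and 25.4. The Gpx4 KO-Mist1+ library was far below both others: 5.12-fold lower (95% interval 4.74 to 5.54) than Mist1+ and 3.77-fold lower (95% interval 3.47 to 4.09) than Mist1-. Mist1+ was 1.36-fold higher (95% interval 1.29 to 1.43) than Mist1-, and the log2 ratio of that comparison was 0.43 before and -0.018 after removal of the length trend described below. Among 13351 genes Cwc22 had the 20th lowest log2 ratio in Gpx4 KO-Mist1+ against Mist1+, and among the 11051 protein-coding ones the 12th lowest. Its exons share bases on the same strand with the annotated gene Gm13727, so reads there cannot be assigned to either with certainty.

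The 3 proteins of the exon junction core were ordered alike. Eif4a3, the RNA helicase that clamps the complex on the mRNA, had FPKM of 34.4, 53.3 and 79.1 in the same library order and was 2.3-fold lower (95% interval 2.15 to 2.47) in Gpx4 KO-Mist1+ than in Mist1-. Magoh, which with Rbm8a locks that clamp, had 585, 881 and 1689 counts and FPKM of 46.3, 70.7 and 147. Magoh was 2.08-fold lower (95% interval 1.91 to 2.26) in Mist1+ than in Mist1-, 1.53-fold lower (95% interval 1.37 to 1.7) in Gpx4 KO-Mist1+ than in Mist1+, and 3.17-fold lower (95% interval 2.88 to 3.49) in Gpx4 KO-Mist1+ than in Mist1-. Rbm8a had FPKM of 21.3, 30.1 and 59.4 and was 2.79-fold lower (95% interval 2.6 to 2.99) in Gpx4 KO-Mist1+ than in Mist1-. All 3 were thus lowest in Gpx4 KO-Mist1+ and highest in Mist1-, an order that 21.9% of the 13351 genes had. Magohb, the paralog of Magoh that encodes a near-identical protein and is outside the 49 genes, had the same order, with FPKM of 5.6, 8.12 and 19.8. Reads common to both paralogs make the split between them uncertain.

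Cwc15, a component of the Prp19-related part of the active spliceosome, had FPKM of 33.2, 46.7 and 82.4 and was 2.48-fold lower (95% interval 2.29 to 2.69) in Gpx4 KO-Mist1+ than in Mist1-. Cwc27, a cyclophilin-type spliceosomal protein that binds Cwc22, did not share the drop of its partner. Its FPKM were 6.9, 6.09 and 10.3, and Gpx4 KO-Mist1+ was 1.13-fold higher (95% interval 0.964 to 1.33) than Mist1+, an interval that includes 1. As a ratio of RNA levels per exonic length, Cwc22 to Eif4a3 was 0.196 in Gpx4 KO-Mist1+, 0.649 in Mist1+ and 0.322 in Mist1-. The ratio of transcripts was thus lowest in Gpx4 KO-Mist1+, and no protein level is given by these data. This pair, like the others given as ratios below, was chosen after its values were seen.

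The sequences upstream of 5 starts are printed as examples, chosen after the values were seen. These genes are Cwc22 and Magoh of the exon junction group, and Srsf5 and Srsf6, a pair of SR proteins that diverged in Gpx4 KO-Mist1+. The other is Prpf8, the core U5 protein that was higher in Gpx4 KO-Mist1+ and in Mist1+ than in Mist1-. Cwc22 and Srsf6 had the same order of libraries, highest in Mist1+ and lowest in Gpx4 KO-Mist1+. The sequences come from RefSeq on GRCm38.p6 and lie at chr2:77946376-77946606, minus strand, at chr4:107879505-107879754, plus strand, at chr12:80945249-80945498, plus strand, at chr2:162931258-162931507, plus strand, and at chr11:75486527-75486776, plus strand. Each holds the 250 bases before the annotated start, except for Cwc22, where 19 bases inside the GENCODE gene were left out and 231 remain. Capitals mark exact matches, on either strand, to any of 5 motifs: the GC box GGGCGG, the CCAAT box CCAAT, the ETS motif CCGGAAG, the E-box CACGTG and the TATA box TATAAA.
Cwc22: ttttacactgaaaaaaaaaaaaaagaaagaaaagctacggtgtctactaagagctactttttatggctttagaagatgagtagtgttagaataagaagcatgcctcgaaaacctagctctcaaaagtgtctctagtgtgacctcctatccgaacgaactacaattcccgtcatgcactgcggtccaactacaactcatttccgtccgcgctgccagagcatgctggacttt
Magoh: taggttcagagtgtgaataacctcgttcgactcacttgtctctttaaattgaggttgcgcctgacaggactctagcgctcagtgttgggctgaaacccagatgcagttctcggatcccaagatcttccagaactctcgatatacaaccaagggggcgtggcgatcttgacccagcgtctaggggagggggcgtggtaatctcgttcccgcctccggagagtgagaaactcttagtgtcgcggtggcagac
Srsf5: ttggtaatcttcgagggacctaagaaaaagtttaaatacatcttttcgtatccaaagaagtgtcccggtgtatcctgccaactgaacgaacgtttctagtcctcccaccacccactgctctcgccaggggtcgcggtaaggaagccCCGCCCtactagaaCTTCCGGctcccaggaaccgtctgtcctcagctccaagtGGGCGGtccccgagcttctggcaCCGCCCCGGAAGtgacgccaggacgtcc
Srsf6: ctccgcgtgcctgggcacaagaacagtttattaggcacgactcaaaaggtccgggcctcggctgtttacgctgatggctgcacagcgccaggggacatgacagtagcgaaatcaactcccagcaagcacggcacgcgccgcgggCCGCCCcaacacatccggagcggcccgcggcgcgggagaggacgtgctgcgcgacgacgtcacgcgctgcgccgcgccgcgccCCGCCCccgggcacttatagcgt
Prpf8: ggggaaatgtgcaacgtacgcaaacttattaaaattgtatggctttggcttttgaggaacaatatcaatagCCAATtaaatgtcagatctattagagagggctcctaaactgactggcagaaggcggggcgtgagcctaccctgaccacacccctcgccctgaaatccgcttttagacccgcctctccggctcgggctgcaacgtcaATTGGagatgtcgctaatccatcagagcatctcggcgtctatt

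The 5 windows have little in common. Cwc22 and Magoh hold none of the 5 motifs, Srsf5 holds GC boxes and ETS motifs, 1 pair of which overlaps by shared bases, Srsf6 holds GC boxes only, and Prpf8 holds a CCAAT box on each strand. RefSeq windows were found for 46 of the 49 genes (56 windows, some of them overlapping alternatives of 1 gene), and not for Rbm8a, U2af2 and Clk1. An ETS motif was present in 28.6% of the 56 windows against 8.98% of all 21263 protein-coding windows, and a GC box in 55.4% against 42.6%. A CCAAT box was present in 41.1% against 35.4%, a TATA box in 8.93% against 11.6%, and an E-box in 3.57% against 6.63%. Median GC content was 59.6% in member windows and 55.6% in all windows, and the median number of CG pairs was 21 and 10. The 21263 windows were not limited to genes that reached an FPKM of 1, as all 49 genes did. Whether these differences are particular to splicing genes was not tested. A match is a description of letters and not a binding site.

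SR proteins and the related Tra2 factors bind exonic enhancers and recruit U1 and U2. Most of the 12 genes were lower in Gpx4 KO-Mist1+: 11 of them were below 0 against Mist1+ (background 58.8%), with a median log2 ratio of -0.49, and Srsf5 alone was above 0. Against Mist1- the median of the 12 was -0.44, and in Mist1+ against Mist1- it was 0.02 with a sign that turned between scalings (-0.21 to 0.34). Summed FPKM was 563.69 in Gpx4 KO-Mist1+, 736.27 in Mist1+ and 720.73 in Mist1-.

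Srsf3, the smallest SR protein and one that controls its own splicing through a poison exon, had 3950, 6658 and 7741 counts and FPKM of 30.5, 52.1 and 65.6. It was 2.15-fold lower (95% interval 2.07 to 2.23) in Gpx4 KO-Mist1+ than in Mist1-, the only SR gene past 2-fold in any comparison on the log2(FPKM + 1) scale. Srsf6 had 3597, 7038 and 5707 counts and FPKM of 45.6, 90.4 and 79.4. It stood just outside the 2-fold limit in Gpx4 KO-Mist1+ against Mist1+, at a log2 ratio of -0.97 and a count fold of 1.98-fold lower (95% interval 1.9 to 2.06). Both genes were lowest in Gpx4 KO-Mist1+. Srsf2, which like Srsf1 is a classical enhancer-binding SR protein, had FPKM of 83.4, 136 and 128 and was 1.63-fold lower in Gpx4 KO-Mist1+ than in Mist1+, and Srsf1 had 62.9, 91.7 and 71.5 and was 1.46-fold lower.

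Srsf5 went the other way. It had 10472, 8464 and 8105 counts and FPKM of 160.2, 131 and 136, and Gpx4 KO-Mist1+ was 1.22-fold higher (95% interval 1.19 to 1.26) than Mist1+ and 1.18-fold higher (95% interval 1.14 to 1.21) than Mist1-. Srsf5 thereby made up 28.4% of the summed SR FPKM in Gpx4 KO-Mist1+, 17.8% in Mist1+ and 18.9% in Mist1-. The ratio of Srsf5 to Srsf6 per exonic length was 3.51 (3.38 to 3.65) in Gpx4 KO-Mist1+, 1.45 (1.41 to 1.5) in Mist1+ and 1.71 (1.66 to 1.77) in Mist1-. These intervals cover counting error alone and do not include differences between cultures of a group.

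Srsf4, the least abundant of the 12 in each library, had 372, 636 and 274 counts and FPKM of 6.37, 11 and 5.15. Its count fold in Mist1+ against Mist1- was 2.14-fold higher (95% interval 1.86 to 2.48), and its log2(FPKM + 1) ratio of 0.97 was just outside 2-fold, since adding 1 lowers the ratio of low values. Srsf11 had FPKM of 25.3, 31.2 and 18.6 and was 1.67-fold higher (95% interval 1.59 to 1.76) in Mist1+ than in Mist1-, whereas Srsf9 had 34.9, 41.6 and 60.3 and was 1.45-fold lower (95% interval 1.34 to 1.57). The remaining SR genes, Srsf7, Srsf10, Tra2a and Tra2b, had log2 ratios between -0.62 and -0.14 in Gpx4 KO-Mist1+ against Mist1+.

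The kinases that act on SR proteins differed in direction between Gpx4 KO-Mist1+ and Mist1+, and none reached 2-fold in any comparison. Clk1, a nuclear kinase that is itself regulated by intron retention, had 3192, 2213 and 1713 counts and FPKM of 23.9, 16.8 and 14.1, and its ratio in Gpx4 KO-Mist1+ against Mist1+ (1.42-fold higher (95% interval 1.35 to 1.5)) was the highest of all 49 genes. Clk4, its close paralog, had FPKM of 13.5, 12.4 and 10.4 and was 1.08-fold higher (95% interval 0.999 to 1.17) in Gpx4 KO-Mist1+ than in Mist1+. Srpk1, which phosphorylates SR proteins mainly in the cytoplasm, had FPKM of 7.42, 8.94 and 7.23 and was 1.2-fold lower (95% interval 1.12 to 1.29). The ratio of Clk1 to Srpk1 per exonic length was 3.23 in Gpx4 KO-Mist1+, 1.88 in Mist1+ and 1.95 in Mist1-.

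The RS-rich cofactors were the role group with the highest median in each comparison. The median log2 ratio of Rbm25, Rbm39, Srrm1 and Srrm2 was 0.77 in Mist1+ against Mist1-, 0.30 in Gpx4 KO-Mist1+ against Mist1+, and 0.97 in Gpx4 KO-Mist1+ against Mist1-. It stayed above 0 under every scaling tried, but with the length trend described below removed it was 0.14 in Mist1+ against Mist1- and 0.53 in Gpx4 KO-Mist1+ against Mist1-. All 4 genes had their highest FPKM in Gpx4 KO-Mist1+ and their lowest in Mist1- (background 21.8%). With the trend removed, the log2 ratio of Rbm25 turned to -0.20 and that of Rbm39 to -0.15 in Mist1+ against Mist1-, and that of Rbm25 to -0.084 in Gpx4 KO-Mist1+ against Mist1-.

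Srrm2 (chr17:23790532-23824741, plus strand), which encodes the large scaffold protein of nuclear speckles, had 16827, 13327 and 2812 counts and FPKM of 79.9, 64.1 and 14.7. It was 4.38-fold higher (95% interval 4.2 to 4.56) in Mist1+ than in Mist1- and 5.45-fold higher (95% interval 5.24 to 5.68) in Gpx4 KO-Mist1+ than in Mist1-, whereas Gpx4 KO-Mist1+ was 1.25-fold higher (95% interval 1.22 to 1.28) than Mist1+. Among 11051 protein-coding genes it had the 12th highest log2 ratio in Mist1+ against Mist1-. Gpx4 KO-Mist1+ and Mist1+ were therefore close to each other and far above Mist1-. Exons of Srrm2 overlap those of Elob on the other strand, and whether counting used strand is not given in the sources used here.

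Srrm1, the partner of Srrm2 in a splicing coactivator complex, had FPKM of 40.4, 32.9 and 17 and was 2.37-fold higher (95% interval 2.25 to 2.5) in Gpx4 KO-Mist1+ than in Mist1-. Rbm25, which binds exonic and intronic elements and contacts U1, had FPKM of 15.1, 13.8 and 8.61. Rbm39, a U2AF-related factor and the protein degraded under anticancer sulfonamides, had FPKM of 65.3, 52 and 41.7 and was 1.26-fold higher (95% interval 1.21 to 1.3) in Gpx4 KO-Mist1+ than in Mist1+. Malat1, a nuclear noncoding RNA that resides in the same speckles as Srrm2, had FPKM of 122, 98.8 and 24.9 and was 3.97-fold higher (95% interval 3.8 to 4.14) in Mist1+ than in Mist1-. Neat1, the RNA of the neighbouring paraspeckles, had 62.2, 74.5 and 39.7. Whether the share of nuclear RNA in the libraries had a part in the Srrm2 difference was not tested.

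**Figure D2:**
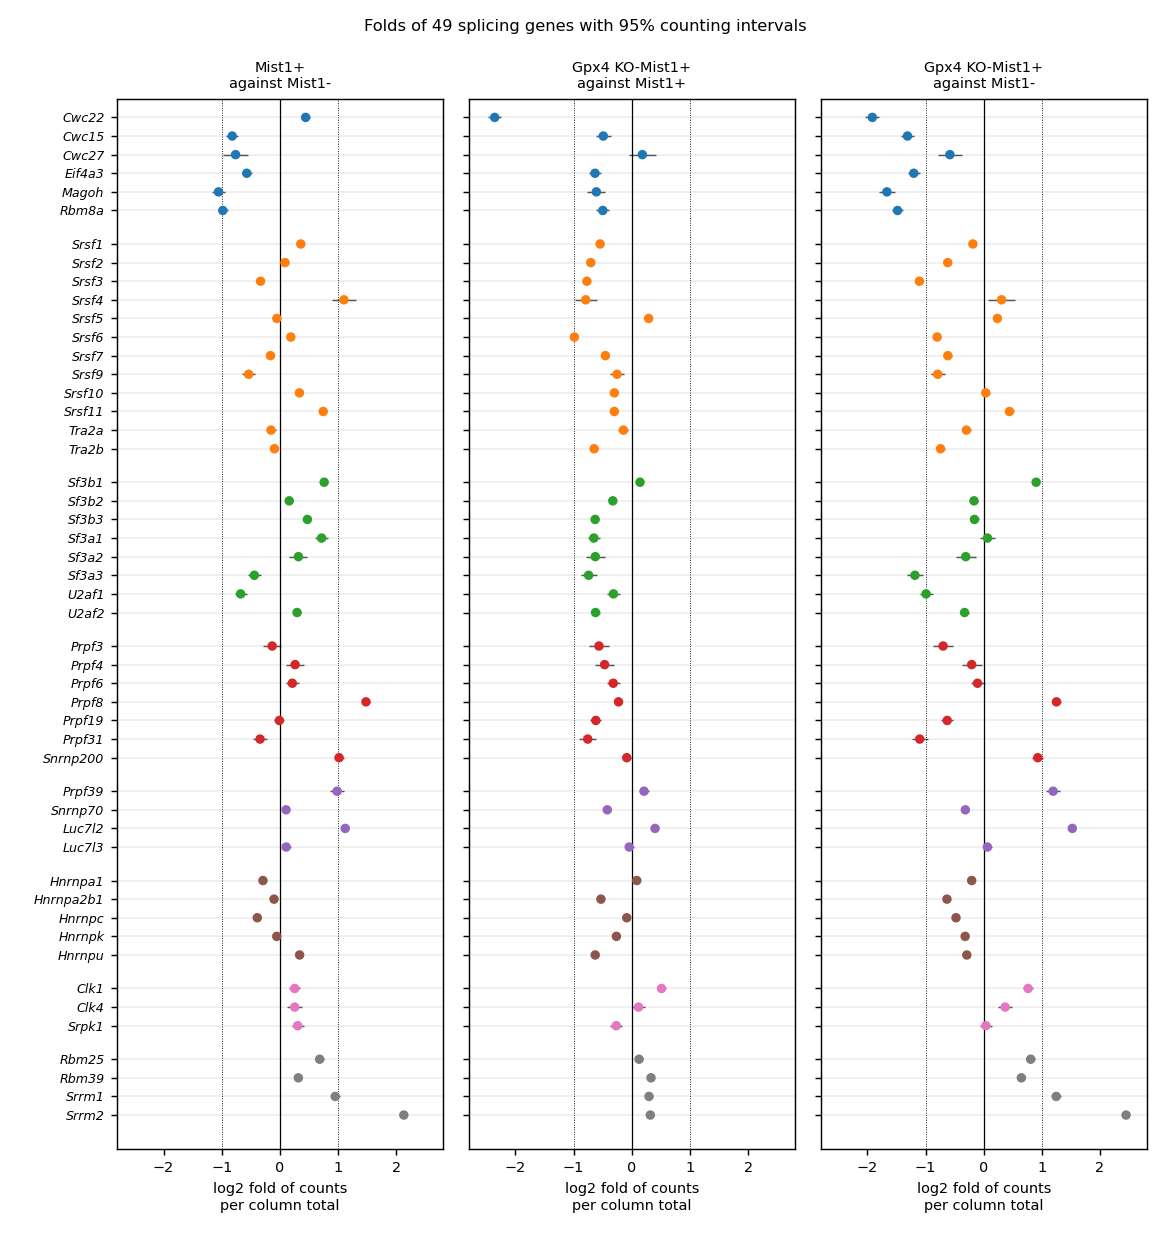
Log2 fold of counts per column total for the 49 splicing genes in the 3 comparisons, coloured by role group. Bars are 95% counting intervals and dotted lines mark 2-fold. Srrm2 (4.38-fold) is farthest right in Mist1+ against Mist1-, Cwc22 (5.12-fold lower) is farthest left in Gpx4 KO-Mist1+ against Mist1+, and no gene passes 2-fold to the right in that middle panel.

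The plot of folds shows how the role groups differ in the middle comparison. The SR, U2 and tri-snRNP genes sit mostly left of 0, and the 3 kinases and the RS-rich cofactors mostly right of it. The counting intervals are narrow because each gene has at least 274 reads in a library, and they do not include differences between cultures of the same group. Of the 3 kinases, Srpk1 lies left of 0, and kinases of SR proteins outside the plotted genes were mixed in direction as well. Of 6 such genes that reached an FPKM of 1, 4 were below 0 (background 58.8%) and 2 above it in Gpx4 KO-Mist1+ against Mist1+. Their median log2 ratio was -0.08 (-0.12 to 0.02 over the scalings tried).

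Among U1 factors, Luc7l2 and Prpf39 reached 2-fold in a comparison, and Snrnp70 and Luc7l3 did not. Luc7l2, a U1-associated protein that affects the choice of upstream splice sites, had 6882, 5149 and 2183 counts and FPKM of 34.7, 26.3 and 12.1. It was 2.18-fold higher (95% interval 2.07 to 2.29) in Mist1+ than in Mist1-, 1.32-fold higher (95% interval 1.27 to 1.37) in Gpx4 KO-Mist1+ than in Mist1+, and 2.87-fold higher (95% interval 2.74 to 3.02) in Gpx4 KO-Mist1+ than in Mist1-. Prpf39, another U1-associated factor, had FPKM of 10.8, 9.37 and 4.74 and was 2.29-fold higher (95% interval 2.11 to 2.48) in Gpx4 KO-Mist1+ than in Mist1-. Both had their highest FPKM in Gpx4 KO-Mist1+ and their lowest in Mist1- (background 21.8%). With the length trend removed, neither was past 2-fold in Gpx4 KO-Mist1+ against Mist1- (log2 ratios of 0.77 for Luc7l2 and 0.37 for Prpf39), and the median of the 4 U1 genes was 0.015 there, against 0.55 before. Snrnp70, the U1-specific protein that binds the snRNA itself, had FPKM of 36.2, 48.4 and 45, and Luc7l3 had 22.2, 22.9 and 21.3. The ratio of Luc7l2 to Snrnp70 per exonic length was 0.960 (0.925 to 0.997) in Gpx4 KO-Mist1+, 0.543 (0.523 to 0.564) in Mist1+ and 0.269 (0.255 to 0.282) in Mist1-.

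The U2 factors had a median log2 ratio of -0.59 in Gpx4 KO-Mist1+ against Mist1+, where 7 of the 8 were below 0 (background 58.8%), and of 0.29 in Mist1+ against Mist1-, where the scalings tried gave -0.075 to 0.62. Sf3b1, the SF3b subunit that holds the branch point and is recurrently mutated in blood cancers, was the exception. It had 8336, 7462 and 4066 counts and FPKM of 44.7, 40.5 and 23.9, was 1.1-fold higher (95% interval 1.07 to 1.14) in Gpx4 KO-Mist1+ than in Mist1+, and was 1.87-fold higher (95% interval 1.8 to 1.94) in Gpx4 KO-Mist1+ than in Mist1-. With the length trend described below removed, its log2 ratio in Gpx4 KO-Mist1+ against Mist1- was 0.22, against 0.87 before. Sf3b3, a subunit of the same complex, had FPKM of 15.3, 23.7 and 17.1, so the ratio of Sf3b1 to Sf3b3 per exonic length was 2.92 (2.8 to 3.05) in Gpx4 KO-Mist1+, 1.71 (1.65 to 1.78) in Mist1+ and 1.40 (1.33 to 1.47) in Mist1-. Transcripts for subunits of 1 complex were thus not kept in a fixed ratio across the libraries.

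Sf3a3, a subunit of SF3a, had FPKM of 15.3, 25.5 and 34.6 and was 2.27-fold lower (95% interval 2.07 to 2.49) in Gpx4 KO-Mist1+ than in Mist1-. U2af1, which reads the AG of the downstream splice site, had FPKM of 24.2, 30.1 and 48.1 and stood just outside 2-fold in the same comparison at a log2 ratio of -0.96. U2af2, its partner on the polypyrimidine tract, had FPKM of 37.4, 57.6 and 47 and was 1.54-fold lower (95% interval 1.46 to 1.62) in Gpx4 KO-Mist1+ than in Mist1+. The U2AF partners differed in order: U2af1 was highest in Mist1- and U2af2 in Mist1+. Sf3b2, Sf3a1 and Sf3a2 were all lower in Gpx4 KO-Mist1+ than in Mist1+, with log2 ratios of -0.32, -0.61 and -0.59.

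Of the tri-snRNP and Prp19 factors, the 2 largest transcripts behaved unlike the other 5. Prpf8, the U5 protein at the catalytic centre, had 5654, 6537 and 2165 counts and FPKM of 46.2, 54.1 and 19.4. It was 2.79-fold higher (95% interval 2.65 to 2.93) in Mist1+ than in Mist1- and 2.38-fold higher (95% interval 2.26 to 2.5) in Gpx4 KO-Mist1+ than in Mist1-, with the Gpx4 KO-Mist1+ library 1.17-fold lower (95% interval 1.13 to 1.21) than Mist1+. Snrnp200, the helicase that unwinds U4 from U6, had FPKM of 22.3, 23.7 and 11.7 and a count fold of 2.02-fold higher (95% interval 1.9 to 2.16) in Mist1+ against Mist1-, with a log2(FPKM + 1) ratio of 0.96. With the length trend removed, that ratio was 0.44. Both U5 genes were therefore lowest in Mist1- and within 1.17-fold between Gpx4 KO-Mist1+ and Mist1+.

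Prpf31, which bridges U4/U6 and U5 and is mutated in retinitis pigmentosa, had FPKM of 7.12, 12 and 15.3. It was 2.14-fold lower (95% interval 1.95 to 2.36) in Gpx4 KO-Mist1+ than in Mist1-, just inside 2-fold at a log2 ratio of -1.002. Prpf19, the ubiquitin ligase of the Prp19 complex, had FPKM of 12.2, 18.8 and 18.9 and was 1.53-fold lower in Gpx4 KO-Mist1+ than in Mist1+. The others, Prpf3, Prpf4 and Prpf6, had log2 ratios of -0.49, -0.41 and -0.30 in that comparison. The share of Prpf8 in the summed FPKM of these 7 genes was 39.4% in Gpx4 KO-Mist1+, 36.8% in Mist1+ and 19.4% in Mist1-.

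The hnRNPs include the 2 genes with the highest mean FPKM over the 3 libraries, Hnrnpa1 and Hnrnpa2b1, although Srsf5 lay above Hnrnpa2b1 in Gpx4 KO-Mist1+, and none of the 5 reached 2-fold in any comparison. Hnrnpa1, which binds exonic and intronic silencers, had FPKM of 249.5, 235 and 288 and was 1.06-fold higher (95% interval 1.03 to 1.09) in Gpx4 KO-Mist1+ than in Mist1+. Hnrnpa2b1, its relative, had 15738, 22442 and 22220 counts and FPKM of 146, 211 and 226, and was 1.44-fold lower (95% interval 1.42 to 1.47) in Gpx4 KO-Mist1+ than in Mist1+. The 2 relatives thus differed in direction between these libraries. Hnrnpu, a nuclear matrix protein, had FPKM of 52, 80.4 and 63.6 and was 1.55-fold lower (95% interval 1.51 to 1.59) in Gpx4 KO-Mist1+ than in Mist1+, and Hnrnpc, which guards against the inclusion of Alu-like exons in human cells, had 66.7, 70.9 and 92.8. Hnrnpk, a poly(C)-binding protein, had 98, 118 and 122. Hnrnpa1 has the highest FPKM of the 49 in every library, but per length of the principal transcript Hnrnpa2b1 was higher in each, at 577.5, 834.2 and 894.6 against 410.2, 386.6 and 473.2 on that scale. The order of levels between genes therefore depends on which length is used.

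The log2 ratio of a splicing gene was related to its length in the comparisons with Mist1-. Across the 49 genes the Spearman correlation of log2 ratio with exonic length was 0.68 in Mist1+ against Mist1-, 0.35 in Gpx4 KO-Mist1+ against Mist1+ and 0.63 in Gpx4 KO-Mist1+ against Mist1-. With the length of the principal transcript it was 0.70, 0.069 and 0.50 in the same order, so the middle value depends on which length is used. Over all 13351 genes the correlation with exonic length was 0.49, -0.018 and 0.39, so long genes in general were higher in Gpx4 KO-Mist1+ and in Mist1+ than in Mist1-. These are correlations across genes of the same libraries, and genes are not independent replicates. With all genes split into 5 groups of equal size by length, the shortest group had a median log2 ratio of -0.36 in Mist1+ against Mist1- and the longest of 0.63. Of the 49 splicing genes, 19 lay in the longest group and 1, Magoh, in the shortest.

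With the trend of all genes over length removed, 1 splicing gene remained past 2-fold in Mist1+ against Mist1-, Srrm2 at a log2 ratio of 1.33. The share of all genes past 2-fold after removal is not given here, so such counts have no background beside them. Cwc22 remained past 2-fold in Gpx4 KO-Mist1+ against Mist1+, at -2.09. Prpf8 was then at 0.94 and Luc7l2 at 0.36 in Mist1+ against Mist1-, and Magoh at -0.61. The median of the 49 genes in Mist1+ against Mist1- was -0.20 after removal, against 0.18 before it, and it was also below 0, at -0.041, with median-ratio scaling. In Gpx4 KO-Mist1+ against Mist1-, Prpf8 (0.79), Srrm1 (0.80), Luc7l2, Prpf39, Cwc15 (-0.85), Eif4a3 and Sf3a3 (-0.94) were no longer past 2-fold, and Srrm2 was at 1.66, Cwc22 at -2.13, Srsf3 at -1.53 and Prpf31 at -1.23. Tra2b, which was within 2-fold before, was at -1.25. The core of the exon junction complex in Gpx4 KO-Mist1+ against Mist1- was at -0.84 for Eif4a3, -1.24 for Magoh and -1.32 for Rbm8a.

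**Figure D3:**
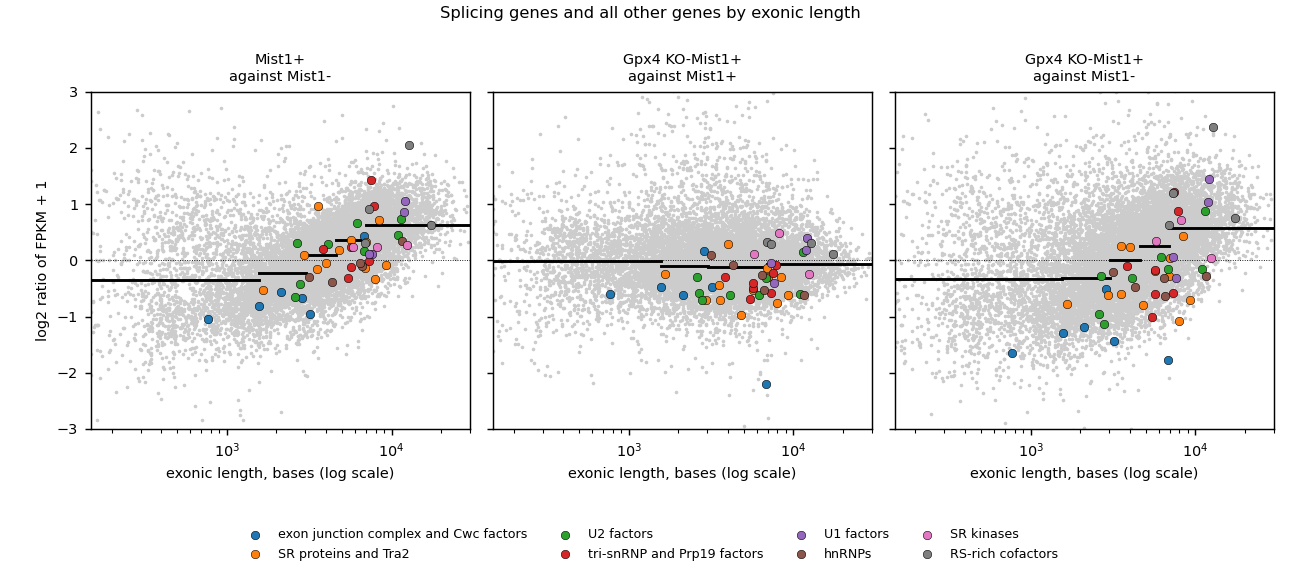
Log2(FPKM + 1) ratio against exonic length (log axis) in the 3 comparisons. Grey points are genes that reached an FPKM of 1, with points beyond the axis limits not drawn; large points are the 49 splicing genes coloured by role; black bars are medians of 5 groups of equal size by length. In Mist1+ against Mist1- the bars step up from -0.36 to 0.63, and Srrm2 and Prpf8 lie above the bar of their group.

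The length plot shows Magoh in the shortest group and Cwc15, Eif4a3 and Cwc27 (1571 to 2873 bases) in the next. Rbm8a, at 3215 bases, lies in the middle group, and Srrm2, Luc7l2, Prpf39 and Sf3b1 lie at the long end. In the middle panel of the plot the bars are nearly flat, and most of the 49 points lie below them. Ribosomal protein genes, which are short, were lower in both comparisons with Mist1-. The median log2 ratio of 85 of them was -1.33 in Mist1+ against Mist1- and -0.94 in Gpx4 KO-Mist1+ against Mist1-. In Gpx4 KO-Mist1+ against Mist1+, where the bars are nearly flat, the median of these ribosomal protein genes was 0.37. They held 5.23% of counts in Gpx4 KO-Mist1+, 4.02% in Mist1+ and 9.37% in Mist1-. Their part in the values of the splicing genes was not tested.

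The lengths themselves are of note for this class, because many splicing genes have annotated transcripts that are not translated. In GENCODE M21, 31 of the 49 (63.3%) have an annotated nonsense-mediated decay transcript, against 29.2% of the 11051 protein-coding genes that reached an FPKM of 1. A retained-intron transcript is annotated for 40 (81.6%), against 59.8%. The union of exons is accordingly long relative to the principal transcript: the median ratio was 1.87 in the 49 genes and 1.35 in the protein-coding genes, from 1.0 for Prpf8 to 4.53 for Clk1. Counts per gene sum over productive and unproductive transcripts, so an FPKM of these genes is not a measure of the translated mRNA alone.

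Other spliceosome genes, listed by complex, show where the 49 genes stand. The Sm and LSm core, small proteins that form rings around the snRNAs, was lower in Gpx4 KO-Mist1+ and in Mist1+ than in Mist1-, under every scaling tried. Of its 20 genes, 10 were at least 2-fold lower and 0 higher in Mist1+ against Mist1- (median -0.98), 0 and 0 in Gpx4 KO-Mist1+ against Mist1+ (median -0.32), and 15 lower and 0 higher in Gpx4 KO-Mist1+ against Mist1- (median -1.38). The shares over all genes were 5.73% lower and 7.88% higher in Mist1+ against Mist1-, 2.74% and 4.81% in Gpx4 KO-Mist1+ against Mist1+, and 8.56% and 11.6% in Gpx4 KO-Mist1+ against Mist1-. Snrpf, a ring subunit, had FPKM of 33.3, 59.3 and 163, and was 4.9-fold lower (95% interval 4.44 to 5.43) in Gpx4 KO-Mist1+ than in Mist1-. Snrpn, the imprinted Sm gene, was above Mist1- in Gpx4 KO-Mist1+ alone, with FPKM of 8.87, 4.52 and 5.61.

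Phf5a and Bud31, each the lowest of its list in both comparisons with Mist1-, had the same order. Phf5a, a small SF3b subunit, had FPKM of 16.4, 31.3 and 62.2, and Bud31, a small protein of the active spliceosome, had 21.3, 44.5 and 77.3 and was 2.09-fold lower (95% interval 1.89 to 2.31) in Gpx4 KO-Mist1+ than in Mist1+. Further SR-related genes were mostly above Mist1-. The 17 that reached an FPKM of 1 had medians of 0.71 in Mist1+ against Mist1- (-0.012 with the length trend removed), -0.21 in Gpx4 KO-Mist1+ against Mist1+ and 0.48 in Gpx4 KO-Mist1+ against Mist1-, and Nktr, a cyclophilin with an RS domain, had FPKM of 9.25, 8.53 and 1.79. Smg1, the kinase that starts nonsense-mediated decay, had FPKM of 12, 10.3 and 3.06 and was 3.37-fold higher (95% interval 3.15 to 3.6) in Mist1+ than in Mist1-. Over all 10 lists, 147 of 159 genes reached an FPKM of 1, and 7 were 2-fold higher (background 7.88%) and 13 lower (5.73%) in Mist1+ against Mist1-, 0 (4.81%) and 1 (2.74%) in Gpx4 KO-Mist1+ against Mist1+, and 5 (11.6%) and 27 (8.56%) in Gpx4 KO-Mist1+ against Mist1-.

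**Figure D4:**
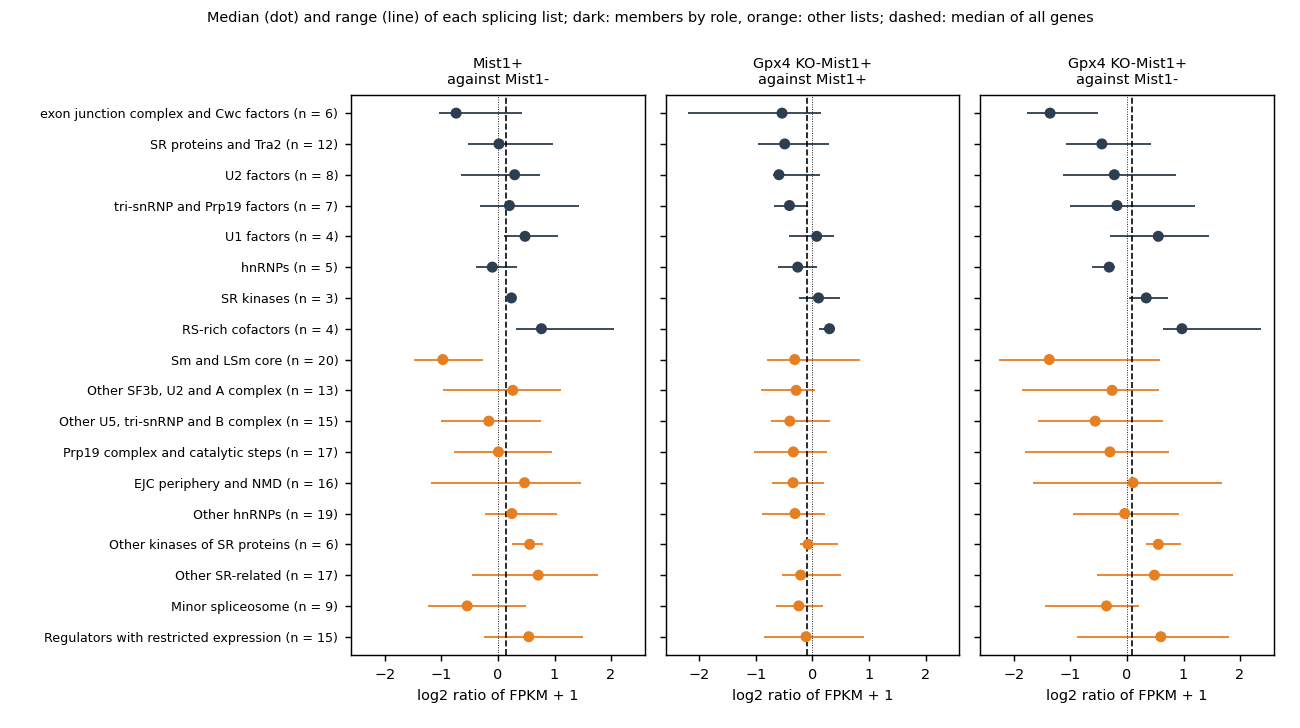
Median (dot) and range (line) of log2(FPKM + 1) ratios by gene group in the 3 comparisons, for the 8 role groups of the 49 splicing genes (dark) and the 10 further lists of spliceosome genes (orange). The dashed line is the median of all genes that reached an FPKM of 1. The Sm and LSm core (medians -0.98 and -1.38) and the exon junction group (-0.74 and -1.36) lie farthest left in the comparisons with Mist1-.

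In the plot of gene groups several medians lie left of 0 in both comparisons with Mist1-. These are the Sm and LSm core, the minor spliceosome, the exon junction group, the hnRNPs and the further U5 and tri-snRNP list. Right of 0 in both are the RS-rich cofactors, U1 factors and SR kinases. So are the further kinases, SR-related genes, exon junction periphery and decay genes, and tissue-restricted regulators. Several of these signs turned between scalings, as for U1 factors in Mist1+ against Mist1- (-0.11 with the length trend removed). In Gpx4 KO-Mist1+ against Mist1+ the medians of the SR, U2, tri-snRNP and exon junction groups were between -0.59 and -0.41. Those of U1 factors, SR kinases and RS-rich cofactors were 0.07, 0.11 and 0.30 there. All of these kept their signs under every scaling tried. The further kinases had a median of -0.08 in that comparison, with a sign that turned between scalings (-0.12 to 0.02). Fewer cells of a type and less RNA per cell cannot be told apart in these bulk libraries.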

How the data were processed

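RNA-seq libraries of 3 mouse gastric corpus organoid cultures, 1 per group, were analysed from the authors' table of 56691 genes. The submitters' processing notes name cutadapt 1.9.1, HISAT2 2.2.1, HTSeq 0.6.1 and the build GRCm38.p5, without the role of each. The strand setting of the counting is not given in the sources used here. Per the file headers, the deposited table holds a raw count and a deposited FPKM value for every gene and library. For the 49 genes, FPKM was recomputed from count, exonic length and column total within 0.0908%.

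The members and gene lists were chosen with earlier results of these data known. Genes whose FPKM reached 1 in any library were compared as log2(FPKM + 1), so a difference of 1 is 2-fold, and the ratio understates the change of low genes. Count folds were scaled to column totals, with exact binomial 95% intervals that cover counting error only (scipy 1.17.1); the interval code was tested on simulated data. PCR duplicates are not marked in the counts. There is 1 library per group, so no test was run. Genes named with values were those 2-fold apart in any comparison, the 3 highest and lowest ratios per comparison, and the highest, lowest and most abundant gene of each role; others are named to account for the list. The length trend was a lowess fit (statsmodels 0.14.6, fraction 0.3) of the ratio on log length over all genes. Coordinates and transcript types come from GENCODE M21 (GRCm38), because the start and end in the table matched M21 for 0 of the 49 genes while the span matched for 49. Promoter sequences come from RefSeq (GRCm38.p6). Alternatives tried were other pseudocounts, filters and cutoffs, TPM (FPKM rescaled to a common sum per library), median-ratio scaling, CPM, and removal of the length trend; the protein-coding background was added after seeing the data.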

Additional observations from a re-analysis of the deposited data

How the results depend on the processing

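No paired analysis was possible because each group has 1 library, and for the same reason no library could be left out. The number of splicing genes 2-fold apart in Mist1+ against Mist1- was 4, and became 10 with TPM, 1 with the length trend removed, 16 at 1.5-fold and 1 at 4-fold. Their median log2 ratio of 0.18 became 0.51 with TPM, -0.041 with median-ratio scaling and -0.20 with the length trend removed. In Gpx4 KO-Mist1+ against Mist1+ the count of 1 became 2 with TPM and 15 at 1.5-fold, and the median of -0.32 became -0.23 with median-ratio scaling and -0.21 with the length trend removed. In Gpx4 KO-Mist1+ against Mist1- the 5 higher and 8 lower became 9 and 4 with TPM, and the count of 13 became 7 with the length trend removed, 27 at 1.5-fold and 1 at 4-fold, and the median of -0.28 became 0.00026 with TPM, -0.42 with median-ratio scaling and -0.44 with the length trend removed. The median of all genes moves as well, to 0.45 in Mist1+ against Mist1- and 0.38 in Gpx4 KO-Mist1+ against Mist1- with TPM. The median of the splicing genes minus that of all genes lay between -0.43 and -0.27 in Gpx4 KO-Mist1+ against Mist1- and between -0.24 and -0.19 in Gpx4 KO-Mist1+ against Mist1+ over these scalings, the pseudocounts, CPM and the filter at an FPKM of 5. The cause was not tested. For the counts with the length trend removed, no share of all genes is given. Of 102 values of named genes, 18 were past 2-fold. None of these 18 changed sign. Some were no longer past 2-fold: 5 with TPM, 10 with the length trend removed, 2 with median-ratio scaling and 5 with a pseudocount of 5. Signs of values within 2-fold turned 5 times with TPM, 8 times with median-ratio scaling and 17 times with the length trend removed. The other alternatives (pseudocount of 0.1, no filter, FPKM of at least 5, CPM, protein-coding genes as background) left these counts within 1.5 times. With 1 library per group, differences between cultures of a group cannot be separated from differences between groups.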

Other observations

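Of the splicing regulators known for expression in particular tissues, the epithelial pair was well above an FPKM of 1. Esrp1 and Esrp2, which set the epithelial splicing programme, had FPKM of 30.4, 34.4 and 24.1 and of 28.8, 40.4 and 27.4 in Gpx4 KO-Mist1+, Mist1+ and Mist1-. Of 23 such regulators, 8 did not reach an FPKM of 1 in any library, among them the neuronal factors Rbfox1, Rbfox3, Nova1, Nova2 and Srrm4, and Rbfox1 had 0 counts in all 3 libraries. Mbnl2, a muscleblind factor that binds introns near alternative exons, had FPKM of 39.7, 20.6 and 10.7 and was 1.92-fold higher (95% interval 1.85 to 2) in Gpx4 KO-Mist1+ than in Mist1+ and 3.73-fold higher (95% interval 3.55 to 3.92) than in Mist1-. Its paralog Mbnl3 had FPKM of 4.49, 4.95 and 1.1, so Mbnl3, unlike Mbnl2, was close in Gpx4 KO-Mist1+ and Mist1+.

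The genes nearest to Cwc22 on its chromosome with at least 100 counts in a library were all less low in Gpx4 KO-Mist1+ than Cwc22. As folds of Gpx4 KO-Mist1+ over Mist1+, Sestd1 was at 0.589, Ube2e3 at 0.810, Plekha3 at 1.06, Itprid2 at 1.15, Ccdc141 at 1.28 and Dnajc10 at 1.49, whereas Cwc22 was at 0.195 (0.180 to 0.211). These neighbours were taken by position and looked at after the value of Cwc22 was known.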
